A study of Mus musculus with 9 samples.

Results

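The Hox genes were described here in dorsal root ganglia (DRG) of the mouse with and without injury of the sciatic nerve. DRG hold the cell bodies of sensory neurons together with satellite glia and Schwann cells, and those of L3/L4 send axons into the sciatic nerve. The members were taken by name, as every probe whose gene name in the scanner files began with Hoxa, Hoxb, Hoxc or Hoxd, and this gave 49 probes of 38 genes among the 27670 genes of the array. Of the 38 genes, 11 belonged to the A cluster, 10 to B, 8 to C and 9 to D. The genes were chosen by name, and measured values were used in 2 places. The probe with the brightest mean DRG signal over all 9 arrays stood for each gene, and 34 of the 38 genes passed a filter that asked for signal well above background on at least 4 arrays. Hoxd1 was known to be among the largest falls of these data when the family was chosen, so that its values are given as a description without a test.

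Hox genes encode homeodomain transcription factors that give cells their position along the body axis. In the mouse they lie in clusters on different chromosomes, within which low paralogue numbers are expressed towards the head and high numbers towards the tail, and genes with the same number in different clusters are close relatives. Hox proteins bind DNA with cofactors of the TALE class, such as Pbx and Meis proteins. Retinoic acid switches on genes with low numbers in the embryo, and Polycomb and trithorax complexes keep Hox genes off or on in later life. Neurons of the spinal cord and DRG retain Hox expression in the adult, and Hoxd1 is known for its part in the development of pain-sensing neurons.

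The 4 uninjured and 5 injured samples were L3/L4 DRG of adult mice, labelled control and lesion. All 9 were labelled cre.neg and jun.wt, that is, without Cre and wild type for Jun, the gene of c-Jun. The labels give sciatic nerve transection and 3 days for the injured group, whereas the results text of the study gives an earlier time. Strain, sex and animals were not identified, so that neither pooling nor pairing of the samples is known and p-values measure the spread between these samples. Each DRG RNA was labelled with Cy5 and hybridised with a universal mouse reference RNA, a pool of RNA from cell lines, labelled with Cy3. A log2 ratio in the text is the DRG signal over this reference for the same probe. It orders arrays for 1 gene, and does not compare the amounts of 2 genes.

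Some features of the arrays touch every result. Slide 1 held 3 uninjured arrays, slide 2 held 1 uninjured and 3 injured arrays, and slide 3 held 2 injured arrays. Slide and injury therefore overlap in large part. Between 71.0% and 78.9% of spots were well above background in Cy5. All 5 injury markers fixed for a check of the labels (Atf3, Sprr1a, Gal, Npy and Gadd45a) were higher after injury, and all 16 sensory neuron markers on the array were detected on all 9 arrays. The mean of 8 skeletal muscle genes stood 1.64 and 2.85 above the uninjured mean (log2) on injured arrays 2 and 4, and between -0.15 and 0.30 on the other 3 injured arrays.

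The promoters of 3 members are shown first. Hoxd1 had the largest difference of the family, Hoxb8 lies in the run of B cluster genes that fell, and Hoxd4 had the largest difference upwards, which did not pass the test. Each window runs from 250 bases before to 50 bases after the RefSeq gene start on build GRCm38.p6, and all 3 genes lie on the plus strand, Hoxd1 at chr2:74762730-74763029, Hoxb8 at chr11:96281655-96281954 and Hoxd4 at chr2:74721728-74722027. Capitals mark matches on either strand to the motifs named after the sequences.
Hoxd1: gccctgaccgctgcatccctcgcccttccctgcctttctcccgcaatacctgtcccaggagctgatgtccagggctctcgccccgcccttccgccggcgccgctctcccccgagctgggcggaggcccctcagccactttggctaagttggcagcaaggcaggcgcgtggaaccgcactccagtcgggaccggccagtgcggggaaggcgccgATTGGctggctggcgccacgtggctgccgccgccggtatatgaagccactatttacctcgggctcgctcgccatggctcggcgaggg
Hoxb8: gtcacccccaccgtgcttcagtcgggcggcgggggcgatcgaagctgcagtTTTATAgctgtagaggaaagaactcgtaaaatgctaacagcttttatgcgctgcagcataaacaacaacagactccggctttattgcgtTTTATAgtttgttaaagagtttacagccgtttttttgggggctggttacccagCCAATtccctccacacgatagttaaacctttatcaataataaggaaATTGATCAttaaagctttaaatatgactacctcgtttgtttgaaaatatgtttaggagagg
Hoxd4: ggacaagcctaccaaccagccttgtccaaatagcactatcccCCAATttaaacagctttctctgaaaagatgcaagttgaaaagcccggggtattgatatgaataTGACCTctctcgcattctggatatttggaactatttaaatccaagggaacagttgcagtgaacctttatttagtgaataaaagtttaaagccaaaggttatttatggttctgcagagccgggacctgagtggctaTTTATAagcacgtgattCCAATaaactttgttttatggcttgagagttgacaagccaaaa

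Windows were found for 22 of the 38 Hox genes among 27025 genes of the table. Their median was 14.5 CpG in 300 bases, against 7 over all genes, with a range from 4 to 45. The windows shown held 29 CpG for Hoxd1, 13 for Hoxb8 and 4 for Hoxd4. The CCAAT box (CCAAT) was present in the windows of 15 of the 22 Hox genes (68.2%), Hoxd1, Hoxb8 and Hoxd4 among them, against 41.1% of all genes. The TATA box (TATAAA) was present in 4 (18.2%, against 15.7%), the Pbx-Hox motif TGATNNAT in 4 (18.2%, against 10.1%), the Meis motif TGACAG in 2 (9.09%, against 21.6%) and the AP-1 motif TGANTCA in 1 (4.55%, against 8.97%). The core motif of retinoic acid receptors, AGGTCA, was present in 7 Hox windows (31.8%, against 18.1%), Hoxd4 among them. All 7 belonged to tested genes that did not pass the test between the groups, of which 14 had a window. None belonged to Hoxd1 or to the fallen genes with a window (Hoxa7, Hoxa9, Hoxa10 and Hoxb8), 5 in all. The TATA box was present in 2 of these 5 and 1 of the 14, and the CCAAT box in 3 and 10. The Pbx-Hox motif was present in 1 and 1, the Meis motif in 0 and 2, and the AP-1 motif in neither. Hoxb2, Hoxb5, Hoxb6, Hoxb7 and Hoxc6 also fell and had no window. These splits rest on few genes and were not tested. Both strands were searched, and no matches overlapped in the 3 windows shown. A match to a motif is a description of the letters and not evidence of a bound factor.

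Most of the family was detected in the ganglia. The brightest probe was well above background on 4 or more arrays in the DRG channel (Cy5) for 34 of 38 Hox genes (89.5%), against 75.5% of all genes, and on all 9 arrays for 31 (81.6%), against 66.6%. All 11 genes of the A cluster passed, as did 9 of 10 in B, 7 of 8 in C and 7 of 9 in D. By paralogue number, 7 of 8 genes with numbers 1 to 3, 19 of 19 with numbers 4 to 9, and 8 of 11 with numbers 10 to 13 passed. The reference RNA was detected for 34 Hox genes on at least 4 arrays (76.3% of all genes).

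Hoxb1, Hoxc12 and Hoxd13 were not well above background on any array, and Hoxd11 on 1 injured array. The genes nearest to the filter on its inner side were Hoxb13, detected on 4 arrays, Hoxa13 on 6 and Hoxc8 on 7. Of these, Hoxb13 was detected on 2 uninjured and 2 injured arrays, Hoxa13 on 2 and 4, and Hoxc8 on 4 and 3. Every Hox gene that passed the test between the groups was detected on all 9 arrays. No spot of a Hox probe was saturated. Hoxc12 and Hoxd1 were opposites in this respect. Hoxc12 was detected in the reference on all 9 arrays and in DRG on none, whereas Hoxd1 was detected in DRG on all 9 arrays and in the reference on none.

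**Figure D1:**
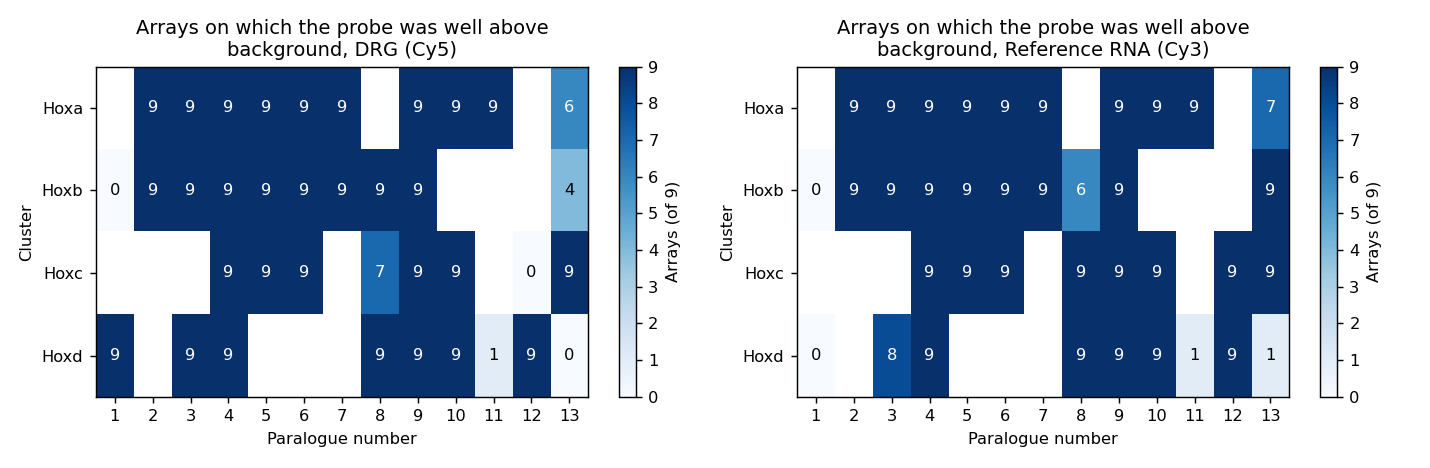
Number of arrays, of 9, on which the brightest probe of each Hox gene was well above background, by cluster (rows) and paralogue number (columns), in DRG (left, Cy5) and in the reference RNA (right, Cy3). Blank cells hold no member shown here. The genes at 0 or 1 in DRG are Hoxb1, Hoxc12, Hoxd11 and Hoxd13.

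Relative to the reference, the uninjured ganglia had log2 ratios above 1 for Hoxa7, Hoxa9, Hoxa10, Hoxb5 to Hoxb9, Hoxd1, Hoxd4 and Hoxd9. In uninjured DRG the log2 ratio was 2.06 ± 0.06 (SD, n = 4) for Hoxa7, 2.06 ± 0.12 for Hoxa9 and 2.90 ± 0.13 for Hoxb5. It was -2.30 ± 0.53 for Hoxa11, -1.39 ± 0.16 for Hoxb13 and -0.87 ± 0.15 for Hoxc13. The ratio was above 0 for 22 of the 34 tested genes, made up of 7 of 11 in A, 8 of 9 in B, 1 of 7 in C and 6 of 7 in D. The background correction adds the same offset to both channels, which draws the ratio of a dim probe towards 0. The sign therefore says little for dim genes such as Hoxa13 (-0.02 ± 0.05) and Hoxd12 (-0.01 ± 0.09). The gene above 0 in the C cluster was Hoxc4, at 0.31 ± 0.05. The ratio of Hoxd1 was 3.29 ± 0.14, against a reference that was not well above background, so that this value depends on the background correction of Cy3. These ratios describe DRG against this reference pool, and differ with what the pool expresses.

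**Figure D2:**
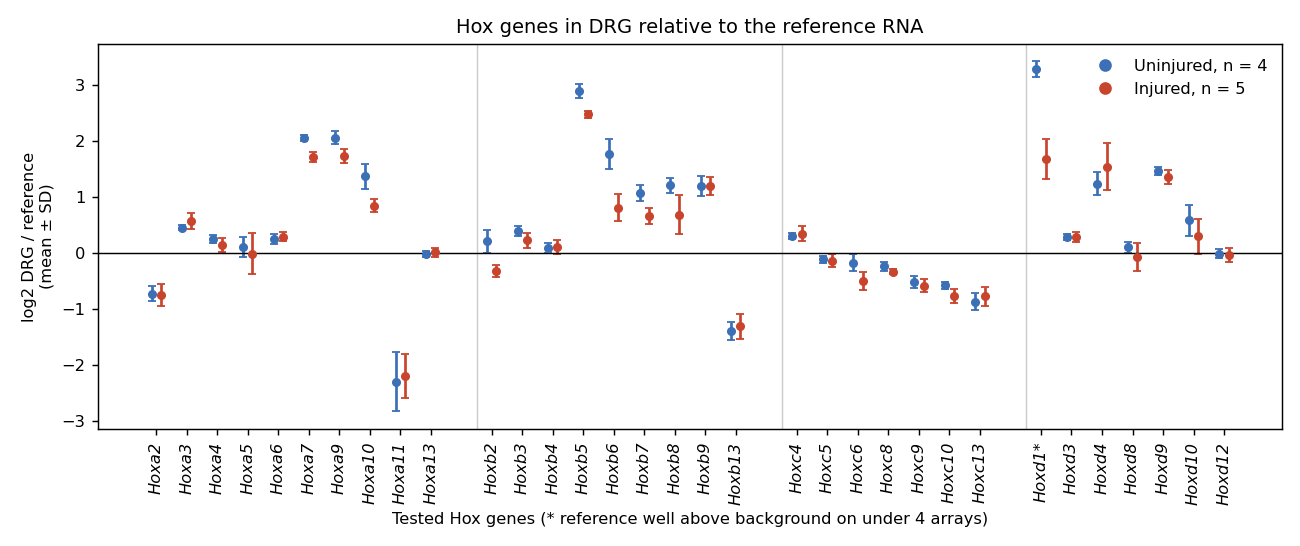
Log2 ratio of DRG over reference RNA (vertical axis, mean ± SD) for 33 of the tested Hox genes in order of cluster and paralogue number, in 4 uninjured (blue) and 5 injured (red) samples. Hoxb5 and Hoxd1 stand highest and Hoxa11 lowest in uninjured DRG. An asterisk marks a gene whose reference signal was well above background on fewer than 4 arrays.

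After nerve injury, every Hox gene that passed the test was lower. Leaving Hoxd1 aside, 10 of 33 genes (30.3%) were lower and 0 were higher in limma's test at an adjusted p under 0.05, and at an unadjusted p under 0.05 the count of higher genes was also 0. Over all 20898 genes tested, 25.4% passed in either direction, 14.0% as lower and 11.4% as higher. The share of Hox genes that passed was thus near that of all genes, and its direction was one-sided. The median difference of the 33 genes was -0.11 on the log2 scale, against 0.0011 over all genes, and 23 of the 33 were below 0 (69.7%, against 49.7%). The falls were small, and 1 of the 33 genes, Hoxb6, both passed and changed by more than 1.5-fold (3.03%, against 5.94% of all genes). The arrays of the groups did not overlap for 8 of the 33 genes, all 8 lower in injured samples, whereas 23.9% of all genes did not overlap, 13.1% as lower and 10.8% as higher. In whole ganglia, fewer cells that express a gene and less RNA per cell cannot be told apart.

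By cluster, 4 of 11 tested genes fell in A (Hoxa7, Hoxa9 and Hoxa10 among them), 5 of 9 in B (Hoxb2, Hoxb5, Hoxb6, Hoxb7 and Hoxb8) and 1 of 7 in C (Hoxc6), and none of the 6 other tested genes of D passed, with 0 at an unadjusted p under 0.05 in limma. By paralogue number and without Hoxd1, 2 of 6 genes with numbers 1 to 3 fell, 7 of 19 with numbers 4 to 9 and 1 of 8 with numbers 10 to 13. The median difference was -0.11 in A, -0.42 in B, -0.07 in C and -0.11 in D, which here includes Hoxd1. Differences between the clusters or between paralogue numbers were not tested. Signal also differed between the genes. On uninjured array 1 the Cy5 intensity before correction was 69.7 to 93.9 for Hoxa13, Hoxb13, Hoxc13 and Hoxd12, none of which passed. It was 2810 for Hoxb5 and 8309 for Hoxa7, which fell. Exceptions went both ways, with 234 for Hoxb8, which fell, and 3740 for Hoxc9, which did not pass. The part of signal level in these counts was not tested. With slide as a fixed block, in which slide 2 is the only one with both groups, 0 of the 33 genes other than Hoxd1 passed in limma (5 at an unadjusted p under 0.05, of which 3 were lower and 2 higher), against 5.64% of all genes. The 10 genes kept their direction, with adjusted p between 0.142 and 0.732. Hoxa10 (-0.52), Hoxb8 (-0.52) and Hoxb5 (-0.37) stayed near their size without the block, while Hoxc6 (-0.12) and Hoxa9 (-0.18) were smaller. The 2 genes counted as higher under the block were Hoxa11 (0.88, against 0.10 without it) and Hoxd4 (0.78, against 0.31).

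**Figure D3:**
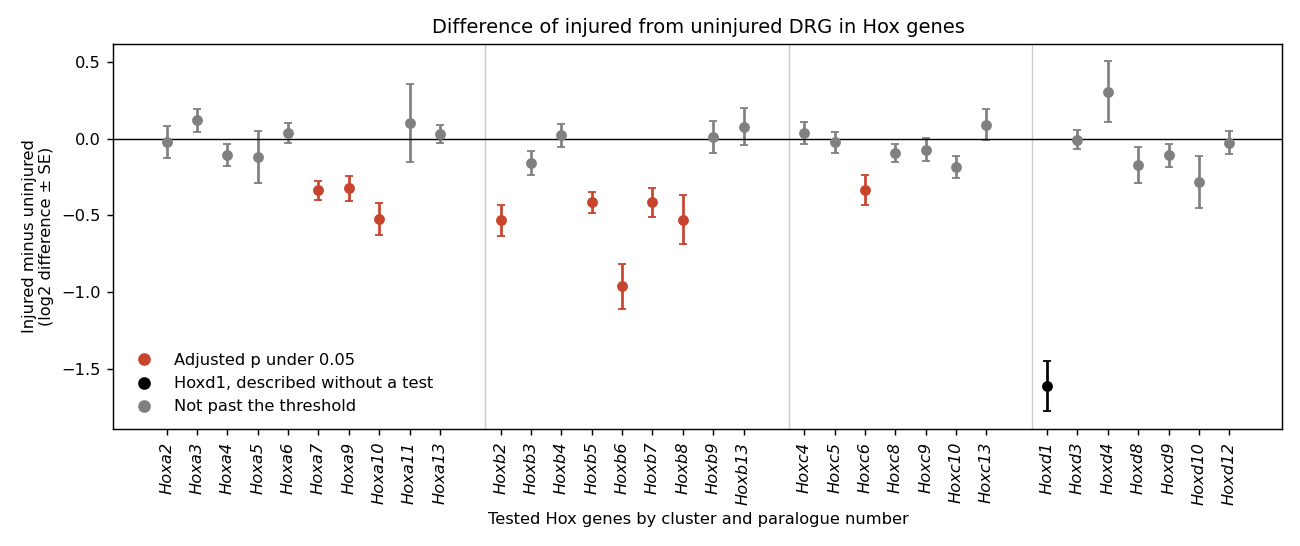
Difference between injured and uninjured DRG (vertical axis, log2 units ± SE from limma) for 33 of the tested Hox genes, in order of cluster and paralogue number. Red points passed an adjusted p of 0.05, grey points did not, and Hoxd1 in black is described without a test. All red points lie below 0, and 5 of the 9 belong to the B cluster.

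Hoxd1 showed the largest difference of the family. Its probe (A_51_P305217, at chr2:74608659-74608718 on build mm7 of the files) gave log2 ratios of 3.41, 3.12, 3.24 and 3.40 on the 4 uninjured arrays and 2.04, 1.55, 2.07, 1.39 and 1.33 on the 5 injured arrays. All injured arrays lay below all uninjured arrays. The mean difference was -1.61 (SE 0.163), a level 3.06-fold lower after injury, which ranked 3 among the falls of the 20898 genes tested. The difference was -1.87 with a normexp offset of 0, -1.79 with every spot in the background fit and -1.61 in the Cy5 channel alone, and the rank lay between 2 and 49 over the settings tried. Before correction the Cy5 intensity of the spot was 840 to 1004 on uninjured and 164 to 442 on injured arrays, and its Cy3 intensity was 41.7 to 46.7 on all 9 arrays, with no separation of the groups in Cy3. Within slide 2 the ratio was 3.41 on the uninjured array and 1.64 on average on the 3 injured arrays.

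The differences of its neighbours in the D cluster were smaller, and none passed the test. Hoxd3, whose probe was detected on all 9 arrays, differed by -0.01 (SE 0.063). Hoxd4 gave 0.97, 1.48, 1.26 and 1.24 on uninjured arrays and 2.07, 1.30, 1.44, 1.04 and 1.88 on injured arrays. The groups overlapped for Hoxd4, with the lowest value on an uninjured array and the highest on an injured array, and the difference of 0.31 (SE 0.196) did not pass limma's test (adjusted p = 0.292). It was 0.56 (adjusted p = 0.0539) without injured arrays 2 and 4, those with high muscle genes. On slide 2 the Hoxd4 ratio was 0.97 on the uninjured array and 1.75 on average over the 3 injured arrays, all of them higher. Hoxd10, a gene of lumbar motor neurons in the embryo, gave 0.82, 0.73, 0.57 and 0.21 on uninjured and 0.53, 0.36, 0.65, -0.11 and 0.09 on injured arrays, with a difference of -0.28 (SE 0.169, adjusted p = 0.265 in limma). Hoxd8, Hoxd9 and Hoxd12 differed by -0.17, -0.11 and -0.03, none past the threshold.

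In the B cluster the genes that fell formed a run from Hoxb5 to Hoxb8, together with Hoxb2, which patterns the hindbrain. Hoxb5 gave 2.85, 2.74, 2.98 and 3.01 on uninjured arrays and 2.55, 2.38, 2.45, 2.51 and 2.51 on injured arrays. The groups did not overlap, and the fall was 0.42 (log2 difference -0.42, SE 0.070, adjusted p = 0.00167 in limma). Hoxb7 gave 1.00, 0.93, 1.12 and 1.25 against 0.63, 0.59, 0.58, 0.57 and 0.92 after injury. Injured array 5 lay just below the lowest uninjured array, and the other injured arrays well below it (-0.42, SE 0.093, adjusted p = 0.00802 in limma).

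The call of Hoxb8 rested on single arrays and on the processing. This gene, known from grooming behaviour in mutant mice and from a lineage of microglia, gave 1.21, 1.15, 1.40 and 1.08 on uninjured arrays and 1.24, 0.31, 0.63, 0.71 and 0.52 on injured arrays. Injured array 1 lay among the uninjured arrays, and the difference was -0.53 (SE 0.159, adjusted p = 0.0339 in limma). It missed the threshold when any 1 of the arrays other than injured array 1 was left out, with adjusted p between 0.0510 and 0.0968. The call was also lost in limma with every spot in the background fit (adjusted p = 0.0553), with a normexp offset of 0 (0.141) and with Agilent's own log ratio (0.229). It held under 9 of 23 other settings. The reference signal of Hoxb8 was well above background on 6 arrays. A second probe of the gene (A_52_P312043) was not well above background in DRG on any array. Hoxb9, the next gene of the cluster, differed by 0.01 (SE 0.104), Hoxb3 by -0.16 (SE 0.079), Hoxb4 by 0.02 (SE 0.076) and Hoxb13 by 0.08 (SE 0.120), none past the threshold.

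Hoxb6 had the largest difference after Hoxd1, and its probes disagreed. The brighter probe (A_51_P232207) gave 1.64, 1.49, 1.85 and 2.11 on uninjured arrays and 0.67, 0.88, 0.63, 0.68 and 1.20 on injured arrays, without overlap. The difference was -0.96 (SE 0.146, adjusted p = 0.000891 in limma), a 1.95-fold fall. A dimmer probe named for Hoxb6 (A_52_P648750), also detected on all 9 arrays, gave a difference of 0.15 (SE 0.058). Hoxb2 was similar in this respect. Its brighter probe (A_52_P15300) gave 0.09, -0.04, 0.41 and 0.36 on uninjured arrays and -0.30, -0.24, -0.25, -0.51 and -0.33 on injured arrays, all lower (-0.53, SE 0.0998, adjusted p = 0.00313 in limma), whereas its other probe (A_51_P257789) differed by -0.01 (SE 0.160). With the probes of a gene averaged, Hoxb6 still passed (-0.41, adjusted p = 0.00982) and Hoxb2 did not (-0.27, adjusted p = 0.0871). The brighter probes of both genes were assigned to a RefSeq mRNA, and the other probes to sequence records outside RefSeq. Which probe follows the coding transcript of these genes was not tested.

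**Figure D4:**
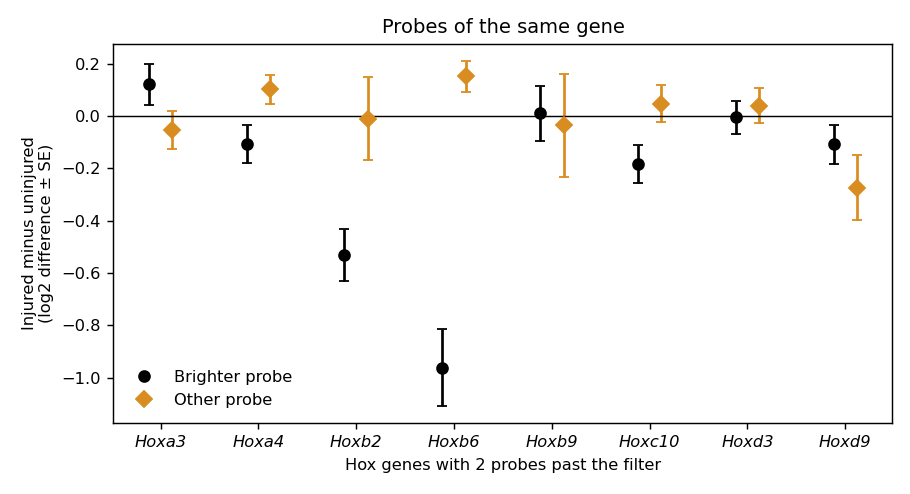
Difference between injured and uninjured DRG (vertical axis, log2 units ± SE) for the 8 Hox genes with 2 probes past the filter. Black circles show the brighter probe, which stands for the gene, and orange diamonds the other probe. The brighter probes of Hoxb6 and Hoxb2 lie at -0.96 and -0.53 and their other probes at 0.15 and -0.01.

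In the A cluster Hoxa7, Hoxa9 and Hoxa10, which lie side by side and act in the trunk and lumbar region of the embryo, were lower after injury without overlap of the groups. Hoxa7 gave 1.98, 2.04, 2.10 and 2.11 on uninjured arrays and 1.64, 1.74, 1.72, 1.64 and 1.86 on injured arrays (-0.34, SE 0.063, adjusted p = 0.00304 in limma). Hoxa10 gave 1.34, 1.08, 1.61 and 1.46 against 0.79, 0.91, 1.01, 0.74 and 0.77 (-0.53, SE 0.104, adjusted p = 0.00421 in limma). For Hoxa9 the values were 1.89, 2.09, 2.15 and 2.12 on uninjured and 1.53, 1.86, 1.84, 1.75 and 1.71 on injured arrays, with a narrow gap on slide 2 between uninjured array 1 and injured array 2 (-0.32, SE 0.083, adjusted p = 0.0163 in limma). Hoxa9 did not pass with median centring in place of loess (adjusted p = 0.0737) or without uninjured array 3 (adjusted p = 0.0533). The genes from Hoxa2 to Hoxa6, Hoxa11 and Hoxa13 lay between -0.12 for Hoxa5 and 0.12 for Hoxa3 and none passed. Hoxa11 was the most variable of them, with an SD of 0.53 among uninjured and 0.40 among injured arrays.

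In the C cluster 1 gene fell. Hoxc6, known from the brachial and thoracic cord, gave -0.33, -0.24, 0.01 and -0.12 on uninjured arrays and -0.57, -0.55, -0.50, -0.67 and -0.24 on injured arrays. Injured array 5 fell within the uninjured range, and the difference was -0.34 (SE 0.097, adjusted p = 0.0282 in limma). It missed the threshold without any 1 of injured arrays 1, 2 or 4 or uninjured arrays 3 or 4, with adjusted p between 0.0543 and 0.0875. Hoxc10, another gene of the lumbar level, gave -0.67, -0.57, -0.55 and -0.52 against -0.78, -0.89, -0.73, -0.85 and -0.57 and did not pass (-0.18, SE 0.073, adjusted p = 0.0942 in limma). It passed without injured array 5 (-0.23, adjusted p = 0.0185), and its other probe differed by 0.05. The remaining 5 tested genes of the cluster lay between -0.09 for Hoxc8 and 0.09 for Hoxc13. Hoxc8, near the detection limit, was at -0.80 (adjusted p = 0.00226) in Agilent's own log ratio and at -0.17 (adjusted p = 0.0298) without background correction.

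**Figure D5:**
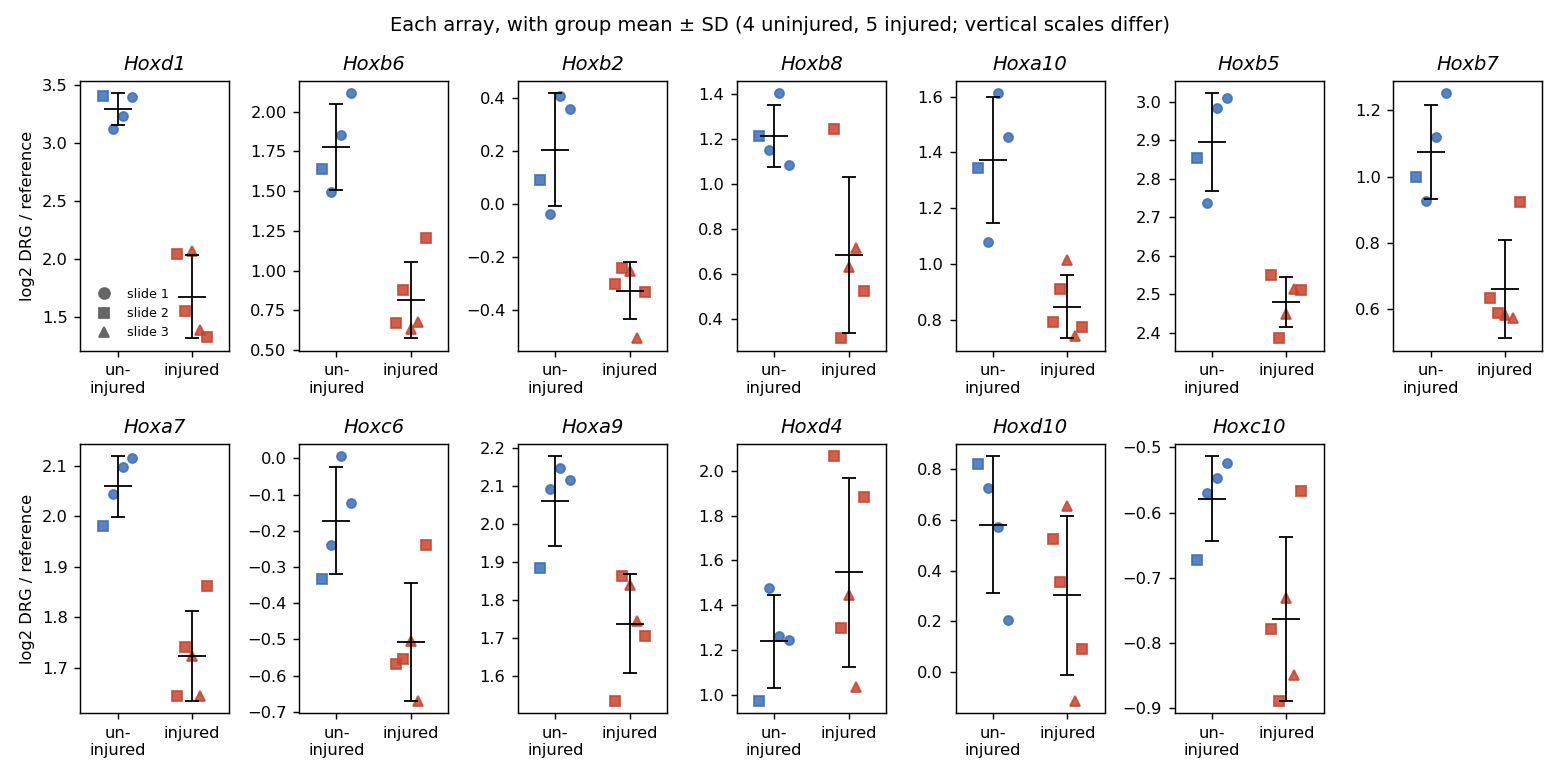
Log2 ratio of DRG over reference RNA on each array (vertical axes, which differ in scale) for Hoxd1 and for 9 Hox genes that passed the test. Hoxd4, Hoxd10 and Hoxc10, also shown, had the largest differences among those that did not. Blue marks uninjured and red injured samples, the marker shape gives the slide, and black lines show the mean ± SD. Injured arrays of Hoxb8 and Hoxc6 reach into the uninjured range, while those of Hoxd1 lie at or below 2.07 against 3.12 or more in uninjured samples.

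Averaged over the 33 tested genes other than Hoxd1, the arrays stood between -0.22 and -0.06 (log2) from the uninjured mean in injured samples and between -0.05 and 0.07 in uninjured samples. The groups lay side by side, with injured array 5 at -0.06 and uninjured array 1 at -0.05. On slide 2 alone, all 3 injured arrays were below the uninjured array for 8 of the 10 Hox genes that fell, with Hoxb8 and Hoxc6 as the exceptions, and for 12 of the 33 genes. The background for this order was 33.2% of all genes, so that the 33 genes as a group were near it. The 10 genes were called with these same arrays and their order on slide 2 is not independent of the call.

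Among the cofactors, 3 of the 9 TALE genes tested were lower and 1 was higher, against 14.0% and 11.4% of all genes. Pknox2 was at 2.18, 2.27, 1.94 and 2.09 on uninjured arrays and 1.63, 1.20, 1.39, 1.17 and 1.02 on injured arrays (-0.84, SE 0.119, adjusted p = 0.000565 in limma). Pbx4, which also fell, differed by -0.39 (SE 0.072, adjusted p = 0.00293), and Meis2 by -0.38 (SE 0.078, adjusted p = 0.00541). Pknox1, a close relative of Pknox2, rose by 0.36 (SE 0.086, adjusted p = 0.0109). The levels of Pbx3 and Meis1 differed by -0.12 (SE 0.078) and -0.23 (SE 0.080), neither past the threshold. Meis1 passed under 7 of 24 other settings and ranged from -0.56 (adjusted p = 0.00268, Agilent's own log ratio) to -0.07 (adjusted p = 0.783, every spot in the background fit). The median over the 9 genes was -0.12.

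Of 21 Polycomb and trithorax genes, regulators of Hox chromatin, 6 were higher and 1 was lower, to be read against 11.4% and 14.0% of all genes. Men1, which encodes the menin subunit of trithorax-type methyltransferases, rose by 0.57 (SE 0.097, adjusted p = 0.00167 in limma), and Ezh2, the methyltransferase of Polycomb complex PRC2, by 0.38 (SE 0.064, adjusted p = 0.00169). Both were higher on all 5 injured arrays than on any uninjured array. Cbx7, a Polycomb subunit that binds the methylated histone, fell by 0.51 (log2 difference -0.51, SE 0.066, adjusted p = 0.000353). The 14 other genes did not pass.

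In the retinoic acid pathway 2 of 16 genes rose and 1 fell, to be read against 25.4% of all genes. Cyp26a1 and Cyp26b1 both encode enzymes that degrade retinoic acid, and they moved in opposite directions. Cyp26a1 gave -0.17, -0.10, 0.05 and -0.21 on uninjured arrays and 0.98, 1.15, 0.63, 0.69 and 0.85 on injured arrays (0.97, SE 0.107, adjusted p = 0.000123 in limma). Cyp26b1 gave 1.93, 1.67, 1.89 and 2.23 against 0.85, 0.55, 0.19, 1.15 and 1.60 (-1.06, SE 0.245, adjusted p = 0.00954 in limma). Neither pair of groups overlapped. Rdh10, which makes retinal from retinol, rose by 0.38 (SE 0.097, adjusted p = 0.0153), and the receptors Rara, Rarb and Rarg differed by -0.03, -0.01 and 0.10, none past the threshold.

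Genes at the borders of the clusters gave 3 lower and 1 higher of 16 tested, near the 25.4% of all genes. Mtx2, beside the D cluster, was lower (-0.47, SE 0.104, adjusted p = 0.00799 in limma), as was Ttll6, beside B (-0.30, SE 0.092, adjusted p = 0.0347). Skap2, beside A, was higher (0.34, SE 0.066, adjusted p = 0.00333). The call of Ttll6 was lost under most of the settings tried. Of 15 noncoding RNAs of the clusters, 3 were found by name on the array. Hoxaas2, an antisense RNA of the A cluster, gave 0.67, 0.87, 0.86 and 0.63 on uninjured arrays and 0.40, 0.05, 0.29, 0.01 and -0.03 on injured arrays (-0.61, SE 0.102, adjusted p = 0.00153 in limma). Hoxaas3 and Hoxd3os1 differed by -0.06 and -0.11 and did not pass. Among the 6 ParaHox genes, distant relatives outside the clusters, Gsx1 and Pdx1 passed the filter and neither passed the test (0 at an unadjusted p under 0.05), while Cdx1, Cdx2 and Cdx4 were not well above background on any array. With slide as a fixed block, Men1 (adjusted p = 0.0171) and Cyp26a1 (adjusted p = 0.00393) still passed, and the other genes of these lists named as rising or falling did not, with adjusted p between 0.0599 for Pknox2 and 0.398 for Pknox1.

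Markers of the cells in the ganglion moved in part with injury, and their part in the Hox result was not tested. The counts that follow are to be read against 14.0% of all genes lower and 11.4% higher. Of 16 sensory neuron genes, 3 were lower (Isl1 by 0.49, Scn11a by 0.45 and Runx1 by 0.43 as falls on the log2 scale) and Ret was higher, and the mean of the 16 ranged from -0.25 to 0.03 on injured and from -0.09 to 0.10 on uninjured arrays. Macrophage genes were higher in 3 of 10 cases, with means of 0.12 to 0.99 on injured and -0.39 to 0.35 on uninjured arrays. Satellite glia genes were higher in 2 of 8 cases, led by Glul, with means of -0.01 to 0.40 and -0.13 to 0.12. Endothelial genes were higher in 1 of 7 cases, with means of -0.01 to 0.76 and -0.31 to 0.15.

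None of the 9 myelinating Schwann cell, 8 fibroblast and meningeal, 8 skeletal muscle or 4 red blood cell genes tested passed in limma, and at an unadjusted p under 0.05 the counts were 2, 0, 1 and 3. Their means ranged from -0.30 to 0.58, -0.06 to 0.84, -0.15 to 2.85 and -0.06 to 1.57 on injured arrays, and from -0.49 to 0.39, -0.53 to 0.57, -0.06 to 0.10 and -0.24 to 0.31 on uninjured arrays. Of 4 tested genes of spinal cord and oligodendrocytes 1 was higher, Gfap, which satellite glia also express after injury, and the oligodendrocyte markers Mog and Opalin were not well above background on any array. Without injured arrays 2 and 4, on which the muscle genes were high, 7 of the 33 Hox genes other than Hoxd1 passed, and Hoxb7 (adjusted p = 0.0654), Hoxb8 (0.146) and Hoxc6 (0.157) did not. That choice of arrays was made after the data were seen.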

How the data were processed

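L3/L4 DRG, 4 uninjured and 5 injured samples, were measured on 2-colour Agilent arrays, DRG in Cy5 and universal mouse reference in Cy3, without dye swap. The deposited intensity values are mean spot signal and median local background per channel, which per the file headers carry no normalization (Feature Extraction 10.5.1.1). The files' log10 ratios, per the file headers, were made with Agilent's own background model and dye normalization, and the authors' processed table holds log2 Cy5 over Cy3. The submitters' processing notes name limma. Replicates were not pooled in the files.

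Intensities were analysed with limma 3.58.1 (R 4.3.3), with normexp background correction (offset 50). Then loess was run within each array, and repeated spots were averaged. Spots of non-uniform local background were left out, since on injured array 2 (20 such spots) they pulled the slope against the authors' values to 0.813, against 1.01 without them. A probe was kept if its Cy5 signal was well above background on 4 arrays or more (31186 of 41174), and the brightest probe stood for each gene. Groups were compared over 20898 genes by moderated statistics in limma, with p-values adjusted by Benjamini-Hochberg and a threshold of 0.05. Current gene symbols were found by accession (22907 probes), by symbol (6654) or by older name (3109), and Hox probes kept the name in the file. The procedure was tested on simulated data of independent noise without slide effects, which cannot address the overlap of slide and injury. The number of arrays limits the precision. Sequences are from RefSeq tables on GRCm38.p6, and Hoxb2, Hoxb6 and 14 other Hox genes were not in the promoter table.

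The members, gene lists, tests and processing were chosen with earlier results of these data known. Items not reported here stay in the counts and fits. Values by array are given for Hoxd1, the reported Hox genes that passed the test and the 3 largest differences that did not. From each list of related genes, the 2 largest rises and falls that passed are named, with Pbx3, Meis1 and Meis2, and further genes were named with their values in view. The alternatives tried were other background corrections, centring, Agilent's and the authors' ratios, Cy5 alone, other filters, slide as a fixed or random block, array weights, averaged probes, a stricter threshold and leaving out arrays. Plots were made in matplotlib 3.10.9 under Python 3.11.15.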

Additional observations from a re-analysis of the deposited data

Results flagged for a closer look

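Of 68 groups (34 Hox genes in each of 2 groups), 5 held an array set apart from the others by most of the group's range, and chance sets apart about 1 in 20 groups. Injured array 5 was the one apart for Hoxa5 (log2 ratio 0.63, others -0.23 to -0.08), Hoxb7 (0.92, others 0.57 to 0.63) and Hoxa2 (-0.41, others -0.88 to -0.78), each time the highest. Injured array 3 was highest for Hoxa3 (0.82, others 0.45 to 0.55). Uninjured array 2 was lowest for Hoxc5 (-0.20, others -0.09 to -0.08). Injured array 5 also had the lowest median Cy5 intensity (156, against 194 to 238 on the other arrays) and the lowest share of spots well above background (71.0%), whose part in this was not tested.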

How the results depend on the processing

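No paired analysis was possible because neither animals nor replicate numbers are in the labels. For nerve crush the study took contralateral uninjured DRG as controls. Whether control and lesion samples of these arrays share animals is not known. Leaving Hoxd1 aside, the 10 Hox genes called became 0 with slide as a fixed block. The count ranged from 7 (without uninjured array 3) to 12 (without injured array 5) when single arrays were left out. None of the settings called a Hox gene higher. Over all genes, 5305 calls became 1179 with slide as a fixed block, 2662 with median centring in place of loess (12.7%), 2971 at an adjusted p under 0.01 and 3011 without injured arrays 2 and 4, and ranged from 4021 to 5443 when single arrays were left out. Hoxd1 ranged from -1.71 to -1.53 when single arrays were left out, and kept its direction under every setting in which it was tested. It was not tested where both channels had to be above background. The number of detected Hox genes was 33 or 34 with single arrays left out, and 36 with Agilent's weaker flag of signal over background. The 10 Hox genes that passed, Hoxd1 left aside, and the related genes named by rule kept their direction under every setting. Of the 23 Hox genes that did not pass, 10 turned direction under at least 1 setting (Hoxa2, Hoxa11, Hoxb4, Hoxb9, Hoxb13, Hoxc4, Hoxc5, Hoxc13, Hoxd3 and Hoxd12), all within 0.103 of 0 in the processing used. Hoxa5, Hoxb3, Hoxc8 and Hoxc10 passed under 1, 2, 2 and 5 settings. Probes near background limit Hoxb13, Hoxa13 and Hoxc8, and also the dim genes Hoxc5, Hoxc13 and Hoxd12.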
